A study of Homo sapiens with 3 samples.

Results

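Cyclins, cyclin-dependent kinases (CDKs), their inhibitors, the retinoblastoma (RB) family and the E2F factors were examined in ES01, BG03 and H9, 3 lines of human embryonic stem (ES) cells kept undifferentiated. The members were chosen by name, as the array probes whose current or older gene symbol is among 47 listed symbols. Of these, 44 genes were read by 54 probes, out of 16225 named genes and 18468 named probes. CCNE2, CDKN2C and E2F6 had no named probe here, so their expression was not analysed. The study's wider purpose was a comparison with mouse pluripotent cells, which is not analysed here. The 3 lines form 1 group, with 1 Illumina bead array (probes on beads, read by fluorescence) for each line, and no genotype change or drug treatment is labelled. All were grown on irradiated mouse embryonic fibroblast feeders in DMEM/F12 with serum replacement and FGF2, so every RNA sample may hold feeder RNA. Each line is 1 culture of 1 derivation, and line, culture and array differences cannot be told apart.

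Progress through the cell cycle is driven by CDKs that are active only when bound to a cyclin. D-type cyclins with CDK4 or CDK6 act in G1, cyclin E with CDK2 at entry into S phase, cyclin A with CDK2 in S phase, and cyclins A and B with CDK1 in G2 and mitosis. RB and its relatives hold E2F factors in check until they are phosphorylated by these kinases, after which E2F factors switch on genes of DNA synthesis and of the next phase. Pluripotent cells are known for a short G1 phase and for a cycle in which this restraint is weak.

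Intensities are background-subtracted probe brightness in arbitrary units after quantile normalization of the arrays. A gene was called above background where it exceeded the 95th percentile of 215 olfactory receptor probes on the same array, 13.3 units in ES01, 12.6 in BG03 and 11.2 in H9. Each probe has its own brightness per transcript, so no gene's intensity is set against another's; only the same probe is compared between lines. With 1 array per line there is no test between lines, and differences are given by size on the log2 scale. Over beads of 1 type on 1 array, the median standard error of log2 intensity was 0.14 to 0.15 for bead types 20 to 100 units above their array's dim level, 0.06 at 100 to 500 units and 0.03 to 0.04 above 500 units. This is the reading error of an array and leaves out differences between cultures. It is in raw bead units, which were not matched to the normalized units, so it is only a rough guide for a gene.

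Most measured markers of human ES cells were expressed in the lines. Of 8 measured markers 7 were above background in all 3 lines, and SOX2 was above it in none (3.90 units in ES01, 5.03 in BG03 and 3.87 in H9). SOX2 was read by 1 probe, so its absence is not shown. ZFP42 was at least 2-fold apart, at 247 units in ES01, 780 in BG03 and 364 in H9. Of 12 fibroblast markers 7 were above background in all lines, and COL3A1 and POSTN were above it in none. The summed intensity of the fibroblast list was 4779 in ES01, 3721 in BG03 and 4893 in H9, most of it from VIM, FN1 and THY1. The sum weights each gene by the brightness of its probe and is no measure of the share of fibroblasts. Single fibroblast markers differed more: 5 of the 10 above background in some line were at least 2-fold apart (COL1A1, COL1A2, DCN, LUM and TWIST1). COL1A2 was at 582 units in ES01, 229 in BG03 and 310.3 in H9, and TWIST1 at 45.4 units in ES01, 24.5 in BG03 and 9.67 in H9. COL1A1, COL1A2, PDGFRB and TWIST1 were highest in ES01. VIM, FN1 and DCN were highest in H9, and THY1, S100A4 and LUM in BG03, LUM being above background there only. The list thus had no common order over the lines. Of 6 endoderm markers all 6 were above background in every line, against 1 of 5 neural, 2 of 5 mesoderm and 0 of 5 trophoblast markers. The endoderm markers AFP and TTR were at least 2-fold apart. AFP was at 383 units in ES01, 322 in BG03 and 148 in H9. TTR, near the threshold in BG03, was at 21 units in ES01, 12.8 in BG03 and 81.5 in H9. The part of feeder or differentiated cells in the values below was not tested. In RNA of whole cultures, fewer cells in a phase and less RNA per cell cannot be told apart.

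Most of the cell cycle machinery was read above background. Of the 44 measured members, 40 (90.9%) were above background in all 3 lines, where 59.8% of all 16225 named genes were. In no line above background were 3 members (6.82%), against 32.2% of all genes: CDK6, CCNE1 and CDKN2A. CDKN2D passed in ES01 and BG03 only, 1 member (2.27%) against 8.07% of all genes above background in 1 or 2 lines. All 8 G2 and mitosis members, all 7 members of the transcription and CDK-activating complexes, the 3 RB family members and the 7 measured E2F and DP members were above background in every line. Among inhibitors this held for 3 of 5.

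**Figure D1:**
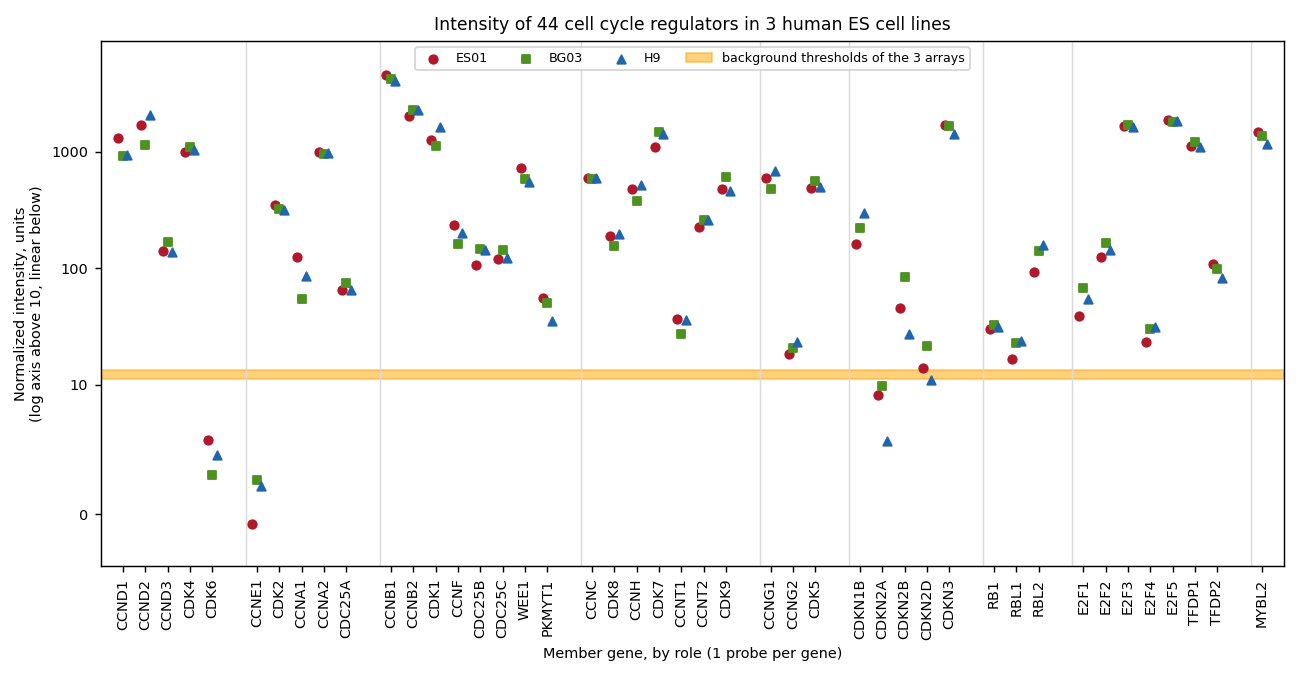
Normalized intensity of the 44 measured members by role, with 1 point per line (ES01, BG03, H9); the axis is logarithmic above 10 units and linear below, and the band spans the 3 background thresholds (11.2 to 13.3 units). CDK6, CCNE1 and CDKN2A lie under the band in every line, CDKN2D lies close to it in ES01 and H9 and above it in BG03 (21.4 units), and the 3 points of most other members lie close together.

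The D-type cyclins, which start G1 by activating CDK4 and CDK6, were all above background. CCND1 measured 1319 units in ES01, 913 in BG03 and 935 in H9. CCND2 measured 1705 units in ES01, 1137 in BG03 and 2057 in H9. CCND1 was thus highest in ES01, with BG03 and H9 alike, whereas CCND2 was highest in H9 and lowest in BG03. CCND3 stood at 141 units in ES01, 169 in BG03 and 138 in H9, a smaller spread (SD of log2 values 0.16, n = 3 lines) than those of CCND1 (0.30) and CCND2 (0.44). CCND2 showed the largest spread among the 12 members brighter than 1000 units, where the median SD was 0.12 both for members and for all genes of that brightness. Its log2 difference was -0.85 for BG03 minus H9 and 0.58 for ES01 minus BG03.

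The balance between D cyclins therefore shifted between lines, as far as 1 probe each can show. The log2 ratio of CCND1 to CCND2 was higher by 0.77 in ES01 than in H9 and by 0.82 in BG03 than in H9, and differed by -0.05 between ES01 and BG03. The ratio of CCND2 to CCND3 was lower by 1.14 in BG03 than in H9 (log2 shift -1.14). Such shifts between lines do not depend on how bright each probe is, nor on scaling between arrays that multiplies all probes alike.

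The 2 kinases that bind D cyclins differed in detection. CDK4 was at 992 units in ES01, 1095 in BG03 and 1046 in H9 (SD of log2 0.07), read by a probe for 1 isoform. CDK6, read by 1 probe, gave 5.73 units in ES01, 3.03 in BG03 and 4.53 in H9, under the threshold in every line. No second probe bears on CDK6, and its absence is not shown.

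At entry into S phase, CDK2, the partner of cyclins E and A, was at 352 units in ES01, 321 in BG03 and 314 in H9. An isoform probe of CDK2, nearer background at 21.5 units in ES01, 17.8 in BG03 and 13.5 in H9, had the same order, with a log2 difference of 0.68 for ES01 minus H9 against 0.16 at the main probe, which turned to -0.12 with arrays scaled to the same median. Cyclin E was covered by 1 probe. CCNE1 was read by a single isoform-specific probe at -0.77 units in ES01, 2.63 in BG03 and 2.20 in H9. Absence of CCNE1 is not shown by that probe. Across all named probes, those for 1 isoform were above background in every line for 28.2%, against 58.8% of probes for genes with 1 listed transcript and 63% of probes for all transcripts of a gene. CDC25A, the phosphatase that removes inhibitory phosphate from CDK2, was at 64.9 units in ES01, 75.3 in BG03 and 65.2 in H9.

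Of the A-type cyclins, 1 was level across the lines and 1 was not. CCNA2, the cyclin of S phase and G2 in dividing cells, was almost level at 993 units in ES01, 959.7 in BG03 and 973 in H9 (SD of log2 0.02, the smallest among the members together with CCNC). CCNA1, known mainly from male germ cells, was at 125 units in ES01, 54.2 in BG03 and 86.3 in H9. CCNA1 was the only member at least 2-fold apart between ES01 and BG03, with ES01 2.31-fold higher (log2 difference 1.21, and 0.87 with arrays scaled to the same median). That is 1 of 41 members above background in some line (2.44%), against 3.75% of 11004 genes in either direction and 2.27% higher in ES01. The log2 ratio of CCNA1 to CCNA2 was higher by 1.16 in ES01 than in BG03.

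The mitotic cyclins were nearly level. CCNB1 measured 4600.2 units in ES01, 4243 in BG03 and 4029 in H9 and CCNB2 2019.6 units in ES01, 2295 in BG03 and 2309 in H9. Their log2 SDs were 0.10 and 0.11, under the 0.12 that is the median for genes brighter than 1000 units. CDK1, the kinase that both activate, was highest in H9 at 1262 units in ES01, 1114 in BG03 and 1633 in H9. A second CDK1 probe, for 1 isoform, had the same order at 469 units in ES01, 405 in BG03 and 657 in H9. The log2 difference for BG03 minus H9 was -0.55 at the main probe and -0.70 at the isoform probe, so both probes put BG03 under H9. CCNF, a cyclin that acts as the receptor of a ubiquitin ligase and partners no CDK, was at 236 units in ES01, 160.2 in BG03 and 199 in H9.

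Regulators of CDK1's inhibitory phosphate were all measured. WEE1, the nuclear kinase that adds it, was at 727 units in ES01, 584 in BG03 and 549 in H9. PKMYT1, its membrane-bound relative, was at 55.6 units in ES01, 50.2 in BG03 and 35.3 in H9. Both were highest in ES01, with log2 differences of 0.40 and 0.65 for ES01 minus H9. The opposing phosphatase gene CDC25B was lowest in ES01 (108 units in ES01, 145 in BG03 and 144 in H9). CDC25C was at 121 units in ES01, 144 in BG03 and 122 in H9 at its main probe and at 129.7 units in ES01, 118 in BG03 and 124 in H9 at an isoform probe, whose order over the lines was reversed. The CDC25C differences, -0.26 and 0.13 for ES01 minus BG03 at the 2 probes, therefore show no common direction. With arrays scaled to the same median the difference of WEE1 between ES01 and BG03 turned from 0.32 to -0.03 and that of PKMYT1 from 0.15 to -0.19, while both stayed positive against H9.

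Promoters of the G2 and mitosis genes share sequence words. In dividing cells such genes are repressed in G1 through the cell cycle genes homology region (CHR), bound by the MuvB complex, and activated through CCAAT boxes bound by NF-Y. The words TTTGAA and TTCGAA (CHR) and CCAAT (NF-Y) were searched on both strands of windows from RefSeq (GRCh38.p14), 250 bases before to 50 after a start. Both kinds were present in 7 of 13 windows of G2 and mitosis members (53.8%; several starts of a gene share it) and in 6.38% of all 35116 windows. These windows belonged to CCNB2, CCNF, CDC25B, CDC25C and CDK1; CCNB1 held CCAAT only, and WEE1 and PKMYT1 were not in the table. CHR words lay 29 bases before the start in CCNB2 and 30 in CDC25C. At another CDC25C start the word lay 43 bases after it, and the start with the word before it was picked for printing. The 250 bases before these starts are printed because they show the 2 words side by side, CHR and CCAAT words in capitals on either strand, 5′ to 3′ in the gene's direction.
CCNB2 (chr15:59104896-59105145, plus strand): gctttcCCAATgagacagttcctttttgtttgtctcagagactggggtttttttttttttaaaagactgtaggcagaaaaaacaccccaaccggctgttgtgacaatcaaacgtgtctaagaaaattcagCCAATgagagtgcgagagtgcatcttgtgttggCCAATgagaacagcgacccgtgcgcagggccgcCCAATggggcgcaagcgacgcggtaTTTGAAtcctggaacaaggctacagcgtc
CDC25C (chr5:138331805-138332054, minus strand): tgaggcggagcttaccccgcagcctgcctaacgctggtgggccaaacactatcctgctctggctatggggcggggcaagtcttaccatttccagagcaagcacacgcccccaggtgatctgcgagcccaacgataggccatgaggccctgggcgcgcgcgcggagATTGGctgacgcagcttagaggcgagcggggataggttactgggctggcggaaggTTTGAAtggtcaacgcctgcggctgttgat
A match of letters is a description and not a bound site. Of the 8 members with both words, the 5 above and CCNC, CDKN3 and E2F3, all were above background in every line. For each pair of lines 4 lay higher and 4 lower, with a median log2 difference of 0.00, so they did not share a direction.

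The complexes that act on RNA polymerase or activate other CDKs were present throughout. CCNC and CDK8, of the Mediator kinase module, were at 599 units in ES01, 585 in BG03 and 590.4 in H9 and at 189 units in ES01, 155 in BG03 and 197 in H9. CCNH and CDK7, which form the CDK-activating kinase, were at 481 units in ES01, 376 in BG03 and 517 in H9 and at 1101 units in ES01, 1485 in BG03 and 1427 in H9. CCNH was lowest in BG03 and CDK7 lowest in ES01, so these partners did not follow each other across the lines. With arrays scaled to the same median, CCNH was level between ES01 and BG03 (log2 difference 0.01). CDK7 was still lower in ES01 (-0.77). CDK9, the kinase of the elongation factor P-TEFb, was at 475 units in ES01, 609 in BG03 and 464 in H9. Its cyclins were CCNT1 (36.7 units in ES01, 27.4 in BG03 and 35.9 in H9) and CCNT2 (228 units in ES01, 258 in BG03 and 259.8 in H9). An isoform probe of CCNT2 was not above background in any line. None of these 7 members reached a 1.5-fold difference in any pair of lines.

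CCNG1, a p53 target cyclin, was at 593 units in ES01, 479 in BG03 and 680.4 in H9, lowest in BG03 except with arrays scaled to the same median (ES01 minus BG03 0.31 and then -0.05). CCNG2, a cyclin linked to cell cycle arrest, was close to background at 18.3 units in ES01, 20.7 in BG03 and 23.4 in H9. CDK5, which is activated by its own non-cyclin partners and acts mainly in neurons, was at 489 units in ES01, 559 in BG03 and 499 in H9.

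Among the inhibitors above background in every line, CDKN2B and CDKN1B differed most between lines. CDKN1B, an inhibitor of CDK2 complexes, was lowest in ES01 at 163 units in ES01, 221 in BG03 and 301 in H9. The 3 lines were evenly spaced, with a log2 difference of -0.88 for ES01 minus H9 and -0.44 for both other pairs. CDKN1A, a relative under p53 control that is not among the 47 symbols, ran the opposite way at 393 units in ES01, 219 in BG03 and 99.5 in H9. The log2 ratio of CDKN1A to CDKN1B was higher by 2.87 in ES01 than in H9, by 1.29 in ES01 than in BG03 and by 1.58 in BG03 than in H9. CDKN1A has 2 probes, of which only the brighter was used, so agreement between them was not examined. The third member of that family, CDKN1C, was nearly level (206 units in ES01, 239 in BG03 and 223 in H9).

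The INK4 inhibitors, which block CDK4 and CDK6, were near or under background, apart from CDKN2B. It was at 46.0 units in ES01, 84.7 in BG03 and 27.2 in H9 at a probe for all its transcripts. BG03 was highest and H9 lowest. BG03 was 3.11-fold higher than H9 (log2 difference 1.64), the largest difference among the members and the only one of at least 2-fold between these lines (1 of 41, 2.44%, against 3.24% of all genes in either direction and 1.74% higher in BG03). A second CDKN2B probe, for 1 isoform, was not above background in any line, so no other probe bears on this difference. With a floor of 50 units the log2 difference was 0.76.

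CDKN2A was read by probes for 2 isoforms only, at 9.17 units in ES01, 9.87 in BG03 and 5.63 in H9 and at 1 units in ES01, -2.47 in BG03 and 0.40 in H9. Neither was above background, and absence of CDKN2A transcripts is not shown. CDKN2D, at 13.8 units in ES01, 21.4 in BG03 and 11.0 in H9, lay at the threshold in ES01 and H9 and above it in BG03, with a log2 difference of 0.94 for BG03 minus H9 after the floor. Under the 99th percentile threshold it was above background in no line and that difference was 0.29. CDKN3, a phosphatase that acts on CDKs and is expressed in dividing cells, was at 1688.5 units in ES01, 1654 in BG03 and 1422 in H9.

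**Figure D2:**
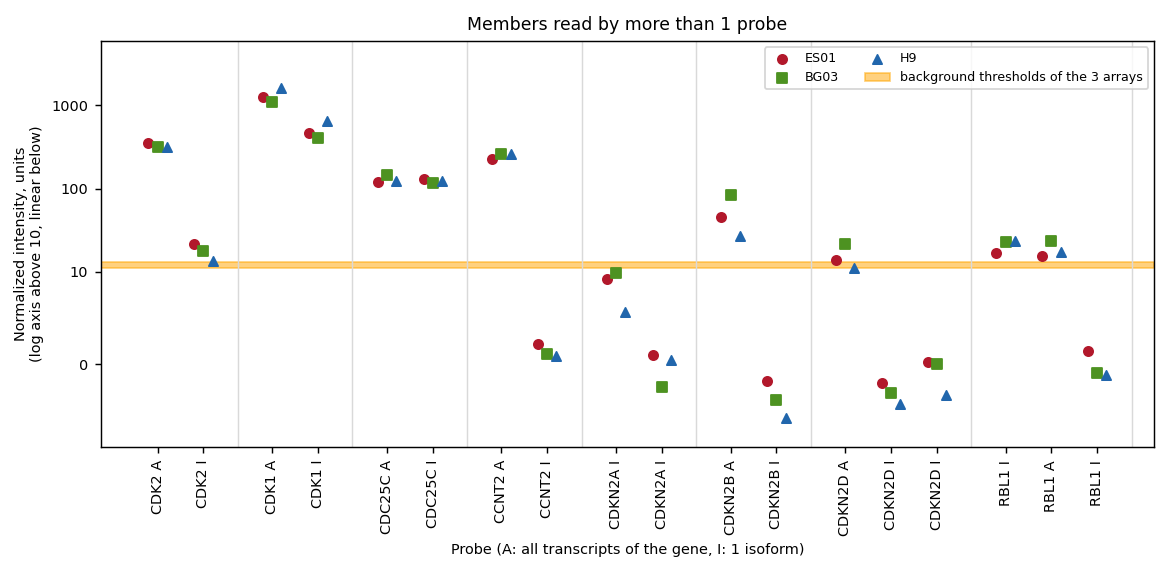
Normalized intensity of each probe (A for all transcripts, I for 1 isoform) of the 8 members read by more than 1 probe, with 1 point per line; the axis is logarithmic above 10 units and linear below, and the band spans the background thresholds. Both CDK1 probes put H9 highest, whereas the isoform probes of CCNT2, CDKN2B, CDKN2D and CDKN2A and 1 of RBL1 lie under the band.

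The RB family read lowest in ES01. RB1 was at 29.9 units in ES01, 32.7 in BG03 and 31.5 in H9 (SD of log2 0.07). RBL1, which encodes p107, was at 16.6 units in ES01, 22.7 in BG03 and 23.6 in H9, and a probe for all RBL1 transcripts gave 15.5 units in ES01, 23.7 in BG03 and 17.4 in H9. RBL2, which encodes p130 and binds E2F4 in resting cells, was at 93.5 units in ES01, 141 in BG03 and 158 in H9. Its log2 difference was -0.76 for ES01 minus H9 and -0.59 for ES01 minus BG03. ES01 was the lowest for all 3 genes, which held under each of the 4 scalings of the arrays. RB1's differences of -0.08 and -0.13 are under the bead error at about that brightness. RBL1 was above background in no line under the 99th percentile threshold. Its ES01 minus H9 difference was -0.51 at the main probe, -0.16 at the all-transcript probe and 0 with a floor of 50 units. RBL2 stayed at -0.76 with that floor.

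The E2F factors and their DP partners were all above background where measured. E2F1, an activator, was at 39.1 units in ES01, 67.6 in BG03 and 54.8 in H9, and E2F2 at 125 units in ES01, 164 in BG03 and 144 in H9. Both were lowest in ES01 and highest in BG03, with log2 differences of -0.79 and -0.40 for ES01 minus BG03. E2F3, the third activator, was level at 1681 units in ES01, 1703 in BG03 and 1628 in H9 (SD of log2 0.03). Among the factors known mainly as repressors, E2F4 was at 23.2 units in ES01, 30.2 in BG03 and 31.2 in H9, and E2F5 at 1870.5 units in ES01, 1797 in BG03 and 1849 in H9 (SD of log2 0.03). Of the partners with which E2Fs bind DNA, TFDP1 was at 1132 units in ES01, 1220.3 in BG03 and 1111 in H9 and TFDP2 at 109.8 units in ES01, 98.3 in BG03 and 82.4 in H9. MYBL2, an E2F target that joins MuvB to activate mitotic genes, was at 1475 units in ES01, 1369 in BG03 and 1174 in H9.

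The ratio of E2F1 to E2F3 was lower in ES01 than in BG03 (log2 shift -0.77) and lower than in H9 (-0.53). The ratio of E2F4 to E2F5 was lower in ES01 by similar amounts against either line (-0.44 and -0.45) and did not shift between BG03 and H9 (-0.01). E2F3 and E2F5 were level, so the differences of E2F1 and E2F4 made up these shifts. Both are read at under 100 units. The median bead error of a single reading at 20 to 100 raw bead units was 0.14 to 0.15, and a ratio shift combines several readings.

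E2F genes are themselves known targets of E2F. Of all windows, 3.31% held an E2F word (TTTCCCGC, TTTGGCGC, TTTGCCGC or TTTCGCGC, both strands), against 8 of 61 windows of members (13.1%) and 4 of 10 windows of E2F and DP members (40%). The genes were CDC25A, CDK1, E2F1, E2F2, E2F3, RBL1 and TFDP1. Windows were available for 40 of the 47 listed symbols, whether or not a probe read them. CDKN2C and E2F6 were among these, and CCND1, CCND2, CDK2 and E2F5 were not. The words lay 33 and 20 bases before the start in E2F1, 26 and 16 in RBL1, 42 in E2F2 and 44 in CDC25A. These 4 sequences are shown because the words lie close to the start and their genes read lower in ES01 than in BG03. Being chosen in part for that direction, they do not bear on whether the word goes with it. E2F words are in capitals.
E2F1 (chr20:33686386-33686635, minus strand): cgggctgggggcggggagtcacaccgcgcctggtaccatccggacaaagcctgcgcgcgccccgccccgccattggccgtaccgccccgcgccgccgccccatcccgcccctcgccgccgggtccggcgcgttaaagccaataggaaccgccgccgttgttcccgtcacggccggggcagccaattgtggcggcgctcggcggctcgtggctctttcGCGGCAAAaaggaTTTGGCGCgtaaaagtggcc
RBL1 (chr20:37095998-37096247, minus strand): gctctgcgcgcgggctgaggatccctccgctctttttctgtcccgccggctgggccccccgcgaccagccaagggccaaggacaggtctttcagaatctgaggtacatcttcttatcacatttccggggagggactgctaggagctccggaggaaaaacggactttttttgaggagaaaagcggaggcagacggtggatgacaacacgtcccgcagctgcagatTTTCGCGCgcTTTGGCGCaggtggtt
E2F2 (chr1:23531234-23531483, minus strand): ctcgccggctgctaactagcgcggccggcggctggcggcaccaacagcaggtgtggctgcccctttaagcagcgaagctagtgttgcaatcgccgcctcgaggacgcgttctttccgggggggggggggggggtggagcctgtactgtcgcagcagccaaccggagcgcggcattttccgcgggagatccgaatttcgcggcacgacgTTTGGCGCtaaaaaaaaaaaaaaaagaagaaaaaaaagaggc
CDC25A (chr3:48188418-48188667, minus strand): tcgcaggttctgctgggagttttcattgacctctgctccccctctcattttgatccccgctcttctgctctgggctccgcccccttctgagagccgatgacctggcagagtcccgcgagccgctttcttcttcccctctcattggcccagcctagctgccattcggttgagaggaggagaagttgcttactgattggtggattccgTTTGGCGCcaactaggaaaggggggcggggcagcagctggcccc
All 7 members with an E2F word were above background in every line. Of these, 6 read lower in ES01 than in BG03, with a median log2 difference of -0.21 and a range of -0.79 to 0.18; the exception was CDK1, and E2F3, lower by only 0.02 (log2 difference -0.02), turned to 0.02 under 1 scaling. Between ES01 and H9, 5 of the 7 read lower in ES01, with a median of -0.21. Of these, CDC25A at -0.01 turned to 0.02 with values as deposited. E2F3 and TFDP1, higher by 0.05 and 0.03, turned to -0.18 and -0.23 with arrays scaled to the same median. Over all 41 members 19 lay higher in ES01 than in BG03 (46.3%, against 49.1% of all genes). For ES01 minus H9, 20 of 41 lay higher (48.8%, against 51.8% of all genes). Of 19 measured E2F target genes of DNA synthesis outside the members, 8 lay higher in ES01 than in BG03 (median log2 difference -0.01). Against H9, 12 of these 19 lay higher in ES01 (median 0.09). Whether an E2F word goes with a direction was not tested.

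Members differed between the lines by about as much as other genes did. The median size of the log2 difference, whatever its sign, was 0.21 for members and 0.24 for all genes between ES01 and H9, 0.26 and 0.21 between ES01 and BG03, and 0.19 for both between BG03 and H9. The median signed log2 difference over the 41 members was -0.01 for ES01 minus H9, -0.11 for ES01 minus BG03 and 0.03 for BG03 minus H9, against 0.01, -0.01 and 0.03 for all 11004 genes above background in some line. The median SD of log2 values was 0.21 for members and 0.19 for all genes. At least 2-fold apart in any pair were 2 members, CCNA1 and CDKN2B (4.88%), against 8.29% of all genes. No member was 2-fold apart between ES01 and H9, against 5.14% of all genes (2.9% higher and 2.24% lower in ES01). At least 1.5-fold apart in any pair were 8 members (19.5%), against 26% of all genes: these 2 and CCND2, PKMYT1, CDKN1B, CDKN2D, RBL2 and E2F1.

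**Figure D3:**
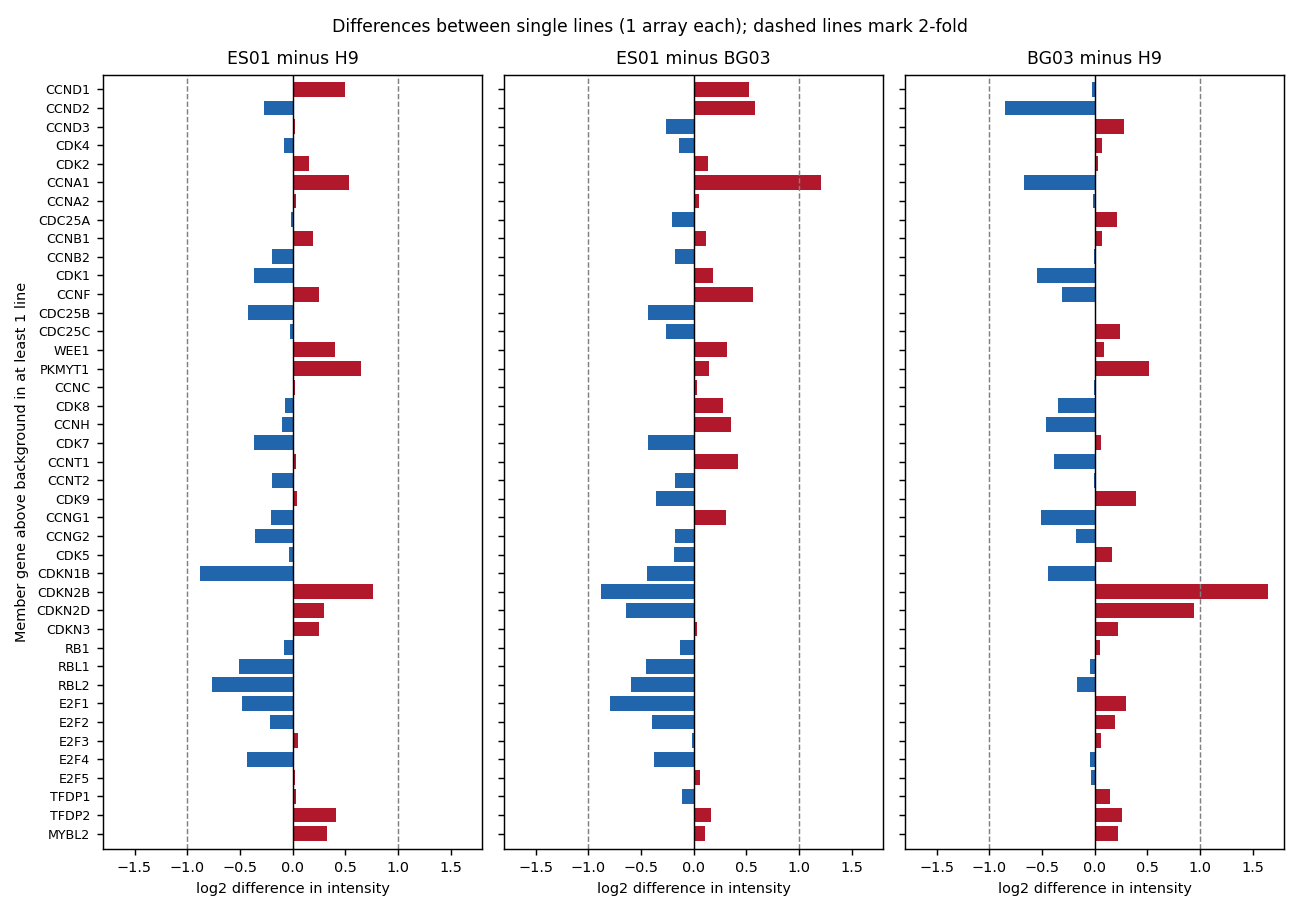
Log2 difference in intensity between lines (bars, 1 array per line) for the 41 members above background in at least 1 line, as ES01 minus H9, ES01 minus BG03 and BG03 minus H9; dashed lines mark 2-fold. CCNA1 passes the line for ES01 minus BG03 (1.21) and CDKN2B for BG03 minus H9 (1.64).

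Each gene's variance across ES01, BG03 and H9 was also compared with limma to the variance usual at its intensity. No member and no gene passed at an adjusted p under 0.05 (0 of 11004, 0%). In simulated data with the spread of these arrays the test recovered none of the genes that had been changed, so a count of 0 says nothing about whether the lines differ. At an unadjusted p under 0.05 there were 2 members, CCND2 and CDKN2B, each with a limma adjusted p = 0.978. That is 4.88% of members against 4.69% of all genes.

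**Figure D4:**
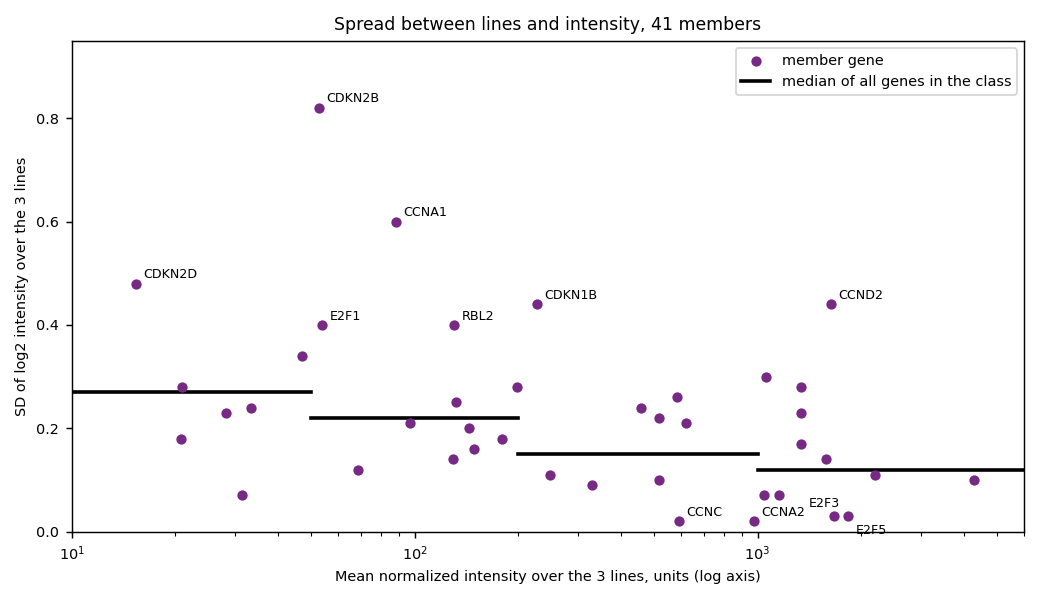
SD of log2 intensity over the 3 lines against mean intensity (log axis) for 41 members (points), with the median SD of all genes in 4 intensity classes (bars at 0.27, 0.22, 0.15 and 0.12). CDKN2B, CCNA1, CDKN2D, CDKN1B and CCND2 stand highest, and CCNC, CCNA2, E2F3 and E2F5 lowest.

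Detection differed between the lists of other pathway genes, with most gaps among the other cyclins and kinases. E2F target genes of DNA synthesis were above background in all lines for 18 of 19 and G2 and mitosis target genes for 20 of 20. The exception was CDC6, a loader of the replicative helicase, above background in BG03 only (13.0 units in ES01, 14.6 in BG03 and 6.07 in H9). None of these 39 genes was 2-fold apart in any pair. Partners and modifiers of CDKs were above background in all lines for 25 of 26, the exception being the neuronal CDK5 activator CDK5R2, and E2F and DREAM partners for 11 of 12, the exception being TFDP3. Of 10 other cyclins 7 were above it, and CCNB3, CCNO and CNTD1 in no line. Of 16 other kinases 8 were above it in all lines; CDK3 and CDKL1 passed in BG03 alone, and CDK15, CDK16, CDK19, CDK20, CDKL2 and CDKL4 in no line.

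In these lists 4 genes were at least 2-fold apart between lines. CDKN1A is given above. CDK12, a kinase of transcription elongation, was lower in H9 (266 units in ES01, 254 in BG03 and 104 in H9), with log2 differences of 1.35 for ES01 minus H9 and 1.28 for BG03 minus H9. CDKL3 was at 29.6 units in ES01, 42.3 in BG03 and 69.1 in H9 and MYB, a relative of MYBL2, at 127 units in ES01, 219.7 in BG03 and 268 in H9, both lowest in ES01. MYBL2 ran the other way from MYB, with ES01 above BG03 except with arrays scaled to the same median (0.11 and then -0.24).

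**Figure D5:**
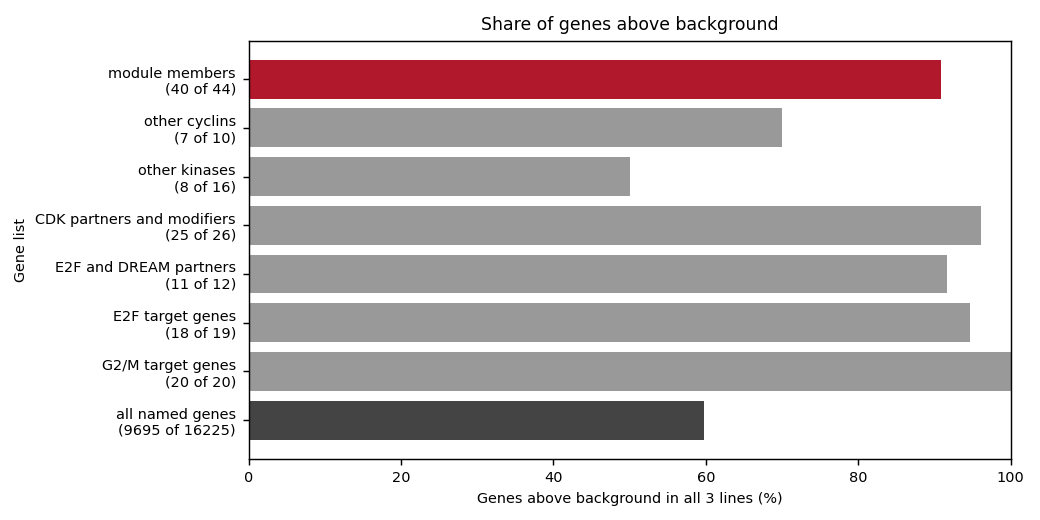
Share of genes above background in all 3 lines (bars from 0) for the members, 6 lists of other pathway genes and all named genes. Members reached 90.9%, and other kinases, with 8 of 16 genes, were the only list under the 59.8% of all named genes.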

How the data were processed

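Total RNA was extracted with TRIzol and labelled with Cy3 for Illumina whole-genome arrays, per the labels' protocols. The deposited values are linear intensity, with 26.3% to 33.8% of values below 0, which shows that background was subtracted before the authors deposited them. Software: not given in the sources used here, nor is any scaling. The deposited bead files hold a green intensity per bead (2089034 to 2102778 beads per array) under numeric codes without gene names and served for reading error (types of at least 5 beads, beads within 3 median absolute deviations).

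Probes were named through the platform annotation (18451 of 18468 matched by gene ID to RefSeq, GRCh38.p14). Final letters of probe names follow Illumina's use: S for a gene with 1 listed transcript, A for all transcripts, I for 1 isoform. After 4 control probes were left out, arrays were quantile-normalized (R 4.3.3, limma 3.58.1; tables were read by data.table, version 1.17.8). The probe with the highest mean stood for a gene; values under the threshold were set to it before log2. Genes under background in every line were left out of differences. The variance test set each gene's variance against limma's intensity-trended prior, with Benjamini-Hochberg adjustment over 11004 genes; tested on simulated data with the spread of these arrays it recovered no changed gene, and with a narrower simulated spread of variances it recovered most. Alternatives were other scalings, background thresholds, probe rules, floors, filters, fold thresholds and priors, and each line left out. Other steps used Python 3.11.15, numpy 2.4.6, pandas 2.3.3 and matplotlib 3.10.9. Every member was described, and of other pathway genes those at least 2-fold apart or in no line above background; CDKN1C, CDC6 and the genes of the other observations were named after their values were seen. Members and lists were chosen with earlier results of these data known. Nothing in the labels says whether lines were grown or hybridized together. The number of arrays limits the precision.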

Additional observations from a re-analysis of the deposited data

How the results depend on the processing

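The count of members above background in all lines, 40, stayed within 36 to 41 under every other normalization, threshold and probe rule tried. Leaving out a line gave 40 to 41. The variance test called 0 to 0 members with a line left out, which says nothing about stability, since it had no power with all lines in. The 99th percentile threshold also put CCNG2, CDKN2D and RBL1 in no line. CCNT1 and E2F4 were then above background in some lines but not in all. Scaling to the same median, which rests on probes under background and moved the median of all genes by -0.27 and -0.34, gave members a median of -0.31 for ES01 minus H9 and -0.45 for ES01 minus BG03. It gave 2 of 41 members at least 2-fold apart in each of these pairs (CDKN1B and RBL2, then CDKN2B and E2F1) and ended the call for CCNA1. The shares of all genes were 7.21% for ES01 minus H9 and 5.52% for ES01 minus BG03. Under the 4 scalings 14, 14 and 6 of 41 members changed sign in the 3 pairs, 5 of them from a size of 0.25 or more. For BG03 minus H9 the count at 2-fold was 0 with the mean of all probes, 0 with the lowest probe and 0 with a floor of 50 units. The shares of all genes were then 2.98%, 3.31% and 1.15%. At 1.5-fold the counts out of 41 members were 4 for ES01 minus H9, 5 for ES01 minus BG03 and 4 for BG03 minus H9. The shares of all genes were 16.3%, 13.4% and 11.9% in these pairs. Without the filter on dim genes 1 of 44 members, CCND2, passed the variance test (limma adjusted p = 0.00908), with 405 of 16225 genes (2.5%). That fit takes in 5221 genes set to the thresholds in every line, which changes the variance that CCND2 is set against. The small p-value is therefore not read as a difference between lines. No called difference changed sign. No paired analysis was possible because all samples form 1 group.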

Other observations

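Transcripts of factors that direct CDK inhibitors and cyclins to ubiquitin ligases were above background in every line. SKP2, the receptor that directs CDKN1B to destruction, was at 1748 units in ES01, 1695 in BG03 and 1489.8 in H9. Its cofactor CKS1B was at 8314 units in ES01, 9209.7 in BG03 and 8746 in H9, and CDC20, the mitotic activator of the anaphase-promoting complex, at 8239.8 units in ES01, 10086 in BG03 and 9107 in H9. FZR1, the activator of the same complex in G1, was nearer the threshold at 40.8 units in ES01, 26.7 in BG03 and 29.7 in H9. The repressors E2F7 (251 units in ES01, 232.5 in BG03 and 185 in H9) and E2F8 (77.9 units in ES01, 72.5 in BG03 and 56.8 in H9) both read lowest in H9.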
